A study of Mus musculus with 6 samples.

Results

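The nuclear genes for the subunits of respiratory complexes II to V, with cytochrome c, were followed in RAW264.7 cells, a macrophage-like line from mouse, after 24 h with SKI-II. The members are the genes of the deposited table whose GENCODE M21 symbols begin with Uqcr, Atp5 or Cox4 to Cox8, or are Sdhb, Sdhc, Sdhd, Cyc1 or Cycs. This rule uses names alone and gave 49 of the 49315 genes, after 6 pseudogenes with names ending in -ps, which held 0 to 6 counts per library, were left out. The cells are labelled wild type (WT), and 3 libraries came from cells given 4 μg/mL of SKI-II, a compound known for inhibiting sphingosine kinases, and 3 from cells given its vehicle, DMSO. The study also measured respiration in this line, after a much shorter exposure to SKI-II than that of these libraries, and reported it reduced. The comparison made here asks how the transcripts for the respiratory machinery stood in the same line at the later time. A link between the transcripts and the respiration was not tested. The labels do not say whether the libraries of a group came from separate cultures, and the study's methods refer for the treatment to its qPCR assay, which was run in biological replicates. The p-values measure the spread between these libraries. Of the 49 members, 44 passed the filter on low counts and were tested.

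Complexes II, III and IV pass electrons from succinate or ubiquinol to oxygen, with cytochrome c as the mobile carrier between III and IV. Complexes III and IV move protons out of the mitochondrial matrix as they do so, and complex V, the ATP synthase, lets them return and makes ATP. Most subunits are encoded in the nucleus and imported, while the catalytic cores of III, IV and the proton channel of V also hold subunits made from mitochondrial DNA. Several complex IV subunits and the c subunit of complex V are encoded by families of genes that differ in the tissues where they are used. Macrophages change how much they respire and how much they rely on glycolysis when they are activated.

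Most of the tested members fell in SKI-II. At an adjusted p below 0.05 in the quasi-likelihood test of edgeR, 30 of the 44 tested members were lower in SKI-II and 1, Cox6a2, was higher, where 19.7% of all 12274 tested genes were lower and 18.4% were higher. The median log2 fold change of the tested members was -0.58, against 0.0038 over all tested genes, and 39 of 44 were fitted below 0. In 33 members every SKI-II library lay below every DMSO library, and in 1 member every SKI-II library lay above, where 25.5% and 24.8% of all tested genes did so. The changes were mostly smaller than 2-fold. Past a log2 fold change of 1, which the study also required, 3 members were lower (Atp5a1, Cox4i2 and Cox7a1) and Cox6a2 was higher, where 7.45% and 8.29% of all tested genes were. Cox4i2 and Cox7a1 rest on few counts, and neither reached a minimum of 10 counts in each library.

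All members together took 0.806%, 0.842% and 0.904% of the counts in DMSO libraries 1, 2 and 3 and 0.468%, 0.566% and 0.605% in the SKI-II libraries. The groups did not overlap. Complex V alone took 0.467% to 0.519% of the counts in DMSO and 0.235% to 0.316% in SKI-II, complex IV 0.163% to 0.196% and 0.120% to 0.153%, complex III 0.115% to 0.124% and 0.0748% to 0.0915%, and complex II 0.0408% to 0.0476% and 0.0247% to 0.0301%. In bulk RNA, fewer cells with these transcripts and less of them per cell cannot be told apart.

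The libraries of a group differed among themselves in the same direction for most members. DMSO library 3 was the highest of the 6 libraries for 35 of the 44 tested members, and SKI-II library 1 was the lowest for 32. Relative to the mean of the DMSO libraries, the median member stood at -0.11, -0.057 and 0.17 on the log2 scale in DMSO libraries 1 to 3 and at -0.72, -0.52 and -0.47 in the SKI-II libraries. Without DMSO library 3 there were 24 members called lower, and without SKI-II library 1 there were 23. Leaving out each library in turn kept the call of 22 of the 30 members that fell, and the other 8 lost it without at least 1 library and are named with their complexes.

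**Figure D1:**
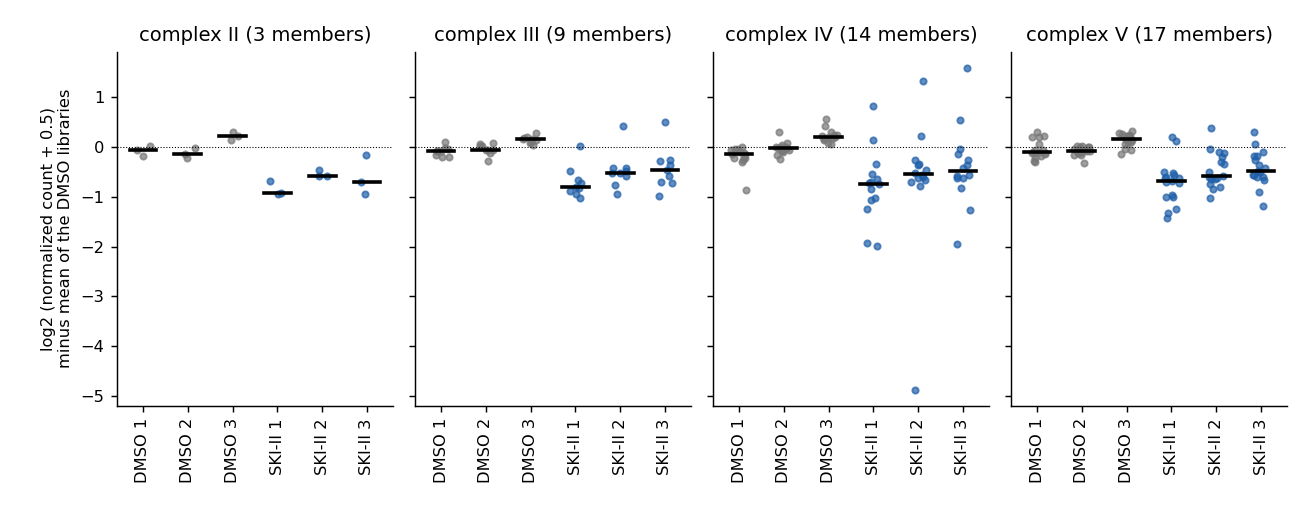
Level of each tested member in each library, as log2 of the normalized count plus 0.5 minus the mean of the DMSO libraries, for complexes II, III, IV and V. Each point is 1 member and each bar the median of the complex, which lies below 0 in every SKI-II library, and the point near the bottom of the complex IV panel is Cox4i2, at 0 counts in SKI-II library 2.

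**Figure D2:**
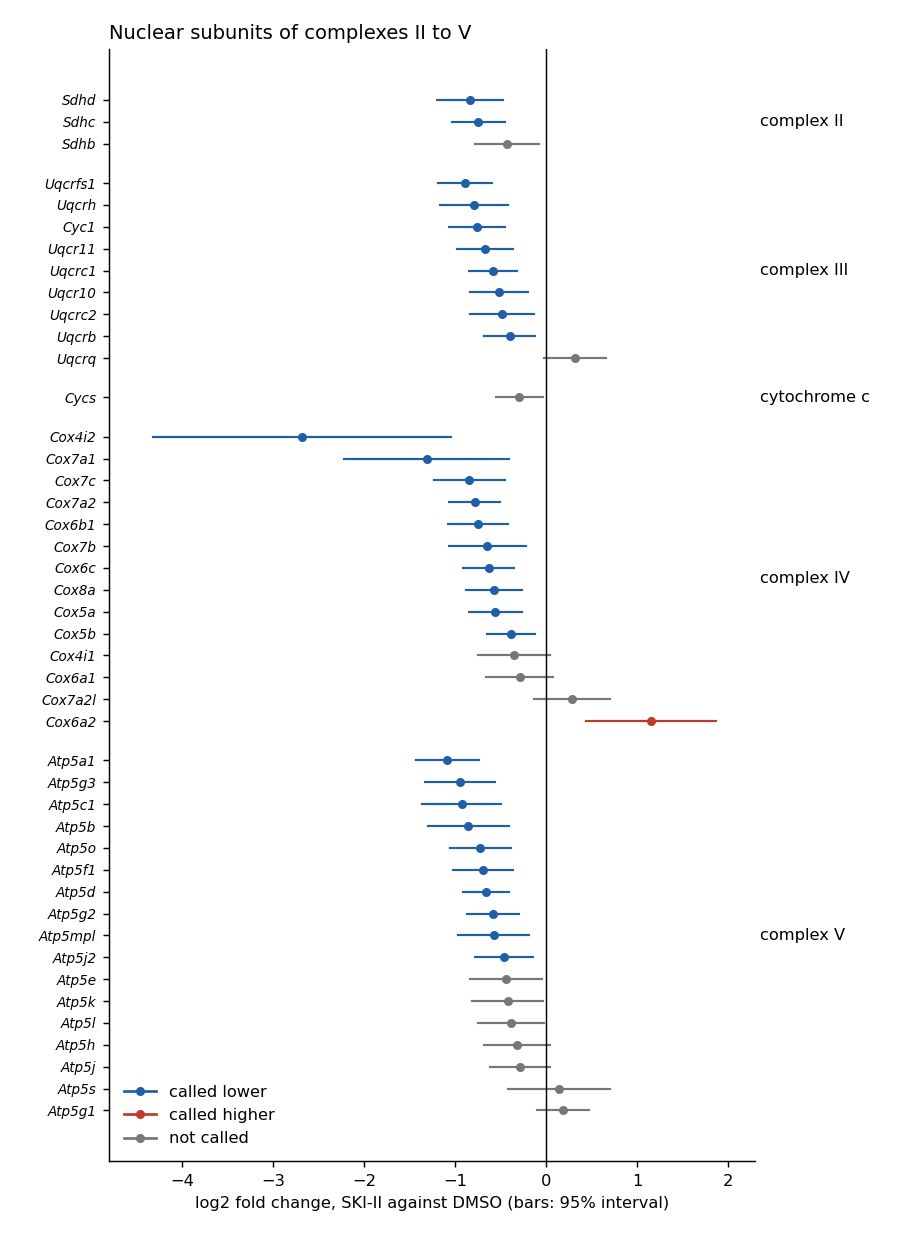
Log2 fold change of the 44 tested members in SKI-II against DMSO, by complex, with 95% intervals. Blue points are the 30 members called lower at an adjusted p below 0.05, the red point is Cox6a2, called higher, and grey points are the 13 not called.

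Complex II, succinate dehydrogenase, oxidises succinate and hands the electrons to ubiquinone. Both of its membrane anchor genes fell. Sdhd (ENSMUSG00000000171, chromosome 9, 50596357 to 50603812, minus strand, GRCm38) had normalized counts, scaled to a common library size, of 1929, 1725 and 2468 in DMSO libraries 1 to 3 against 1051, 1339 and 1042 in SKI-II. The groups were apart, with a log2 fold change of -0.84 ± 0.16 (SE, n = 3 per group) and an edgeR adjusted p of 0.0032. Sdhc went from 2477, 2220 and 2692 to 1285, 1629 and 1504, a log2 fold change of -0.74 ± 0.13 with an edgeR adjusted p of 0.0019. Sdhb, the iron-sulfur subunit, had 2251, 2502 and 2959 normalized counts in DMSO against 1596, 1845 and 2285 in SKI-II. Its groups overlapped in the highest SKI-II and lowest DMSO library and it did not pass the test, with a log2 fold change of -0.43, a 95% interval of -0.78 to -0.075 and an adjusted p of 0.057 by edgeR. Without DMSO library 1 or SKI-II library 3, Sdhb was called lower, at log2 fold changes of -0.53 and -0.58. Sdha, the flavoprotein subunit that the name rule does not reach, went from 7092, 7235 and 7890 to 3988, 4108 and 4897, a log2 fold change of -0.77 ± 0.13.

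Windows before the start sites of 4 members were read from RefSeq (GRCm38.p6) and are shown because NRF1 and GABPA, transcription factors known to act on respiratory genes, have binding motifs that can be looked for in them. Their own transcripts are given with the regulators. Each holds the 120 bases before the start, 5′ to 3′ on the strand of the gene, with matches to 4 motifs in capitals. Sdhd is at chr9:50603850-50603969, Uqcrh at chr4:116075071-116075190, Cycs at chr6:50566570-50566689 and Atp5g3 at chr2:73911327-73911446, all on the minus strand.
Sdhd: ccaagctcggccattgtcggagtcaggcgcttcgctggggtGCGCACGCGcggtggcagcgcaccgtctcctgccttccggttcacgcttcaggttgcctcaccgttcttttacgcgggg
Uqcrh: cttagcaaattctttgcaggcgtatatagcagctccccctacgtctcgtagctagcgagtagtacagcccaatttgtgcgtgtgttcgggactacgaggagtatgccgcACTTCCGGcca
Cycs: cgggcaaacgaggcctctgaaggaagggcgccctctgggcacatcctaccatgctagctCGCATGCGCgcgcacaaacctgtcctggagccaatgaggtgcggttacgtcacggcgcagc
Atp5g3: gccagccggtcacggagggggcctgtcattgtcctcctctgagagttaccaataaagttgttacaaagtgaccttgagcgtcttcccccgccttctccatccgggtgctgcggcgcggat

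The capitals mark an NRF1-type match in Sdhd, whose first base is 79 bases before the start, and another in Cycs at 61 bases, and a GABPA-type match in Uqcrh at 11 bases. The window of Atp5g3 held none of the 4. Over the 250 bases before the start, the NRF1-type letters GCGCANGCG were found on either strand in 7 of the 36 members with a window (19.4%) and in 5.33% of the windows of 27025 genes. The GABPA-type letters CCGGAAGT were found in 3 members (8.33%) and in 2.93% of all windows. The YY1-type letters AAGATGGC were found in 0 members and 1.59% of all windows, and the letters TGACNNNGC, of the type bound by Nrf2, in 1 member (2.78%) and 10.1% of all windows. Matches of different motifs overlapped in 0 members. Of the 7 members with the NRF1-type letters, 2 were called lower, Sdhd and Atp5g2, and of the 26 tested members with a window and without them, 20 were. The median log2 fold change was -0.38 with the letters and -0.65 without. The 27025 windows also cover genes that were not tested here, while most of the members with a window were, so these shares are not of like sets. These matches describe letters in a window, not binding.

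Complex III, the cytochrome bc1 complex, takes electrons from ubiquinol to cytochrome c, and 8 of its 9 members fell. Both of its redox subunits fell. Uqcrfs1, the Rieske iron-sulfur protein (ENSMUSG00000038462, chromosome 13, 30540308 to 30545362, minus strand), had normalized counts of 1571, 1482 and 1796 in DMSO against 791, 840 and 979 in SKI-II, and each SKI-II library was far below each DMSO library. Its log2 fold change was -0.89 ± 0.13 (SE, n = 3 per group), 1.86-fold lower, with an adjusted p of 7.5e-04 in edgeR. Cyc1, cytochrome c1, went from 3661, 4114 and 4540 to 2130, 2395 and 2742, a log2 fold change of -0.76 ± 0.14.

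The core proteins, which derive from a processing peptidase, fell as well. Uqcrc1 had a log2 fold change of -0.58 ± 0.12 and Uqcrc2 of -0.49 ± 0.16. Among the small accessory subunits, Uqcrh, the hinge protein, went from 1141, 886 and 1223 to 583, 749 and 544 normalized counts, and Uqcr11, Uqcr10 and Uqcrb had log2 fold changes of -0.67, -0.52 and -0.40. Uqcrq, the remaining small subunit, was fitted above 0, unlike the other 8. It had 1630, 1956 and 2042 normalized counts in DMSO against 1894, 2479 and 2641 in SKI-II, so that the groups overlapped, and its log2 fold change of 0.32 had a 95% interval of -0.020 to 0.66 and an adjusted p of 0.13 by edgeR. The interval lies above the value of each complex III member that fell. Without DMSO library 2 the calls of Uqcr10, Uqcrb and Uqcrc2 were lost in edgeR (adjusted p of 0.063, 0.070 and 0.071), and 5 of the 9 members were called lower. The calls of Uqcrb and Uqcrc2 were lost as well without DMSO library 3 and without SKI-II library 1 or 2, with an adjusted p of 0.073 to 0.11 by edgeR, and Uqcrq was called higher without SKI-II library 1, at a log2 fold change of 0.44 (adjusted p of 0.037, edgeR).

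Cycs, somatic cytochrome c, which carries electrons between complexes III and IV and starts apoptosis once released, had 2814, 2733 and 3022 normalized counts in DMSO against 2096, 2469 and 2425 in SKI-II. The groups did not overlap, but its log2 fold change of -0.29 (95% interval -0.55 to -0.033) did not pass the test at an adjusted p of 0.073 in edgeR.

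Complex IV, cytochrome c oxidase, reduces oxygen to water, and its nuclear subunits surround a core encoded by mitochondrial DNA. Of its 10 common forms, used in most tissues, 8 fell and 2 did not pass the test. Cox7c (ENSMUSG00000017778, chromosome 13, 86044816 to 86046904, minus strand) had normalized counts of 1179, 1390 and 1543 in DMSO against 577, 830 and 878 in SKI-II, with no overlap. Its log2 fold change was -0.85 ± 0.18 (SE, n = 3 per group) with an adjusted p of 0.0044 by edgeR. Cox7a2 went from 1109, 1061 and 1272 to 637, 720 and 642, a log2 fold change of -0.78 ± 0.13. Cox6b1, which sits on the face that meets cytochrome c, went from 1685, 1773 and 2098 to 905, 1205 and 1194, a log2 fold change of -0.75 ± 0.15.

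Cox7b, Cox6c, Cox8a, Cox5a and Cox5b, the other common forms that fell, had log2 fold changes of -0.64, -0.63, -0.57, -0.56 and -0.38. The call of Cox7b was lost in edgeR without DMSO library 2 or 3 or SKI-II library 1 (adjusted p of 0.062, 0.061 and 0.056), and that of Cox5b without DMSO library 2 or 3 or SKI-II library 1 or 2 (adjusted p of 0.067 to 0.093). The common forms Cox4i1 and Cox6a1 did not pass the test. Cox4i1 had 5793, 6546 and 8334 in DMSO against 4368, 5680 and 6141 in SKI-II, overlapping, with a log2 fold change of -0.35 and a 95% interval of -0.75 to 0.040. Cox6a1 had 3478, 4535 and 5054 in DMSO against 3386, 3136 and 4158 in SKI-II, with a log2 fold change of -0.29 and a 95% interval of -0.66 to 0.080. Without DMSO library 1 Cox6a1 was called lower, at a log2 fold change of -0.44 and an adjusted p of 0.044 in edgeR. Per kilobase of exon, Cox6a1 and Cox8a were the highest of complex IV in DMSO, at 6205 and 5803 normalized counts per kilobase.

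Cox6a2, known as the form of heart and skeletal muscle, was the only member called higher. It lies at chromosome 7, 128205435 to 128206387, minus strand (ENSMUSG00000030785). It had normalized counts of 177, 395 and 476 in DMSO against 567, 799 and 962 in SKI-II, and the lowest SKI-II library was above the highest DMSO library by less than the spread within either group. Its log2 fold change was 1.15 ± 0.32 (SE, n = 3 per group), 2.23-fold higher, with an adjusted p of 0.018 by edgeR. Without SKI-II library 2 the adjusted p was 0.051 in edgeR, at a log2 fold change of 1.14. Cox6a2 held 4.84%, 8.02% and 8.61% of the counts of Cox6a1 and Cox6a2 together in DMSO and 14.4%, 20.3% and 18.8% in SKI-II, so the share did not overlap between groups (exact permutation test, two-sided, p = 0.1, the smallest that 3 against 3 libraries can give). The coding sequences of Cox6a1 and Cox6a2 share no exact stretch longer than 12 bases. The exons of Cox6a2 overlap those of Itgad on the opposite strand over 70 bases, and Itgad had 0 to 1.26 normalized counts per library in DMSO against 3.82 to 15.7 in SKI-II.

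**Figure D3:**
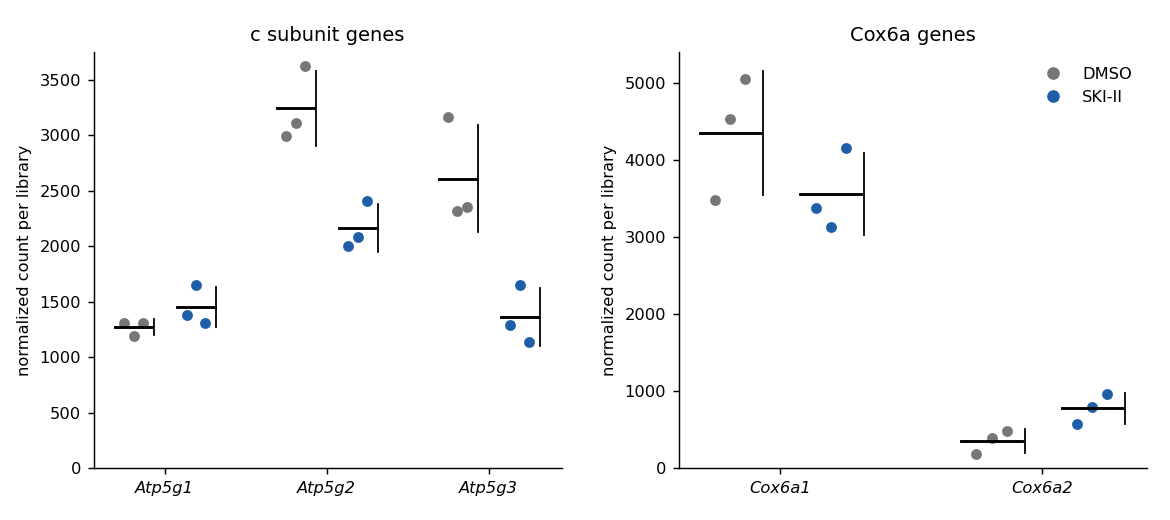
Normalized counts of the 3 genes for the c subunit of complex V and of the 2 Cox6a genes in each library, with the mean (horizontal bar) and SD (vertical bar) of each group. Atp5g2 and Atp5g3 are lower in SKI-II, Atp5g1 overlaps between groups, and Cox6a2 is higher in SKI-II from a level far below that of Cox6a1.

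The other tissue forms were low or at 0. Cox4i2, known as the lung form and as induced by low oxygen, had raw counts of 14, 11 and 15 in DMSO against 3, 0 and 4 in SKI-II, and its log2 fold change of -2.68 ± 0.73 (adjusted p of 0.011, edgeR) rests on these few counts and it passed the filter through its DMSO libraries alone. A count of 0 allows up to 3. Cox7a1, another heart and muscle form, had raw counts of 29, 19 and 34 in DMSO against 6, 17 and 14 in SKI-II, with a log2 fold change of -1.31 ± 0.41 with an adjusted p of 0.028 in edgeR. This call was lost without any 1 library other than SKI-II library 2, with an adjusted p of 0.054 to 0.095 in edgeR. Cox7b2, Cox8b and Cox8c, forms of testis, heart or muscle, were at 0 in all 6 libraries, Cox6b2, a testis form, had 1 count in SKI-II library 2 alone, and Cox6c2, which the annotation calls a processed pseudogene, had at most 1 count per library. These 5 members were not tested. Cox7a2l, an assembly factor for supercomplexes rather than a subunit of the enzyme, had 1570, 1683 and 2496 normalized counts in DMSO against 2069, 2188 and 2740 in SKI-II. Its groups overlapped and its log2 fold change of 0.28 (95% interval -0.13 to 0.70) did not pass the test at an adjusted p of 0.26 in edgeR. Without DMSO library 3 it was called higher, at a log2 fold change of 0.52 (adjusted p of 0.025, edgeR).

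In DMSO, complex V held the 2 members with the highest mean levels per kilobase of exon, Atp5b and Atp5a1, at 7060 and 6462 normalized counts per kilobase. Both fell, to 3903 and 3047 in SKI-II, where Cox6a1 and Cox8a of complex IV stood at 5071 and 3906. The exon length used joins all annotated exons, 4237 bases for Atp5b, 3135 for Atp5a1 and 702 for Cox6a1. Ranks per kilobase therefore depend on the annotation, and in counts both genes stayed far above Cox6a1. The catalytic head of complex V, F1, is built of the subunits encoded by Atp5a1, Atp5b, Atp5c1, Atp5d and Atp5e, of which 4 of 5 fell. Atp5a1, the alpha subunit, had normalized counts of 18643, 20061 and 22067 in DMSO against 8013, 9926 and 10719 in SKI-II. Its groups were far apart, with a log2 fold change of -1.08 ± 0.15 (SE, n = 3 per group), 2.12-fold lower, and an adjusted p of 5.9e-04 by edgeR. Atp5b, the catalytic beta subunit (ENSMUSG00000025393, chromosome 10, 128083273 to 128090391, plus strand), went from 25533, 29279 and 34931 to 12562, 16920 and 20128, a log2 fold change of -0.86 ± 0.20 with an edgeR adjusted p of 0.0082. Atp5a1 and Atp5b together held 61.6% to 64.3% of the complex V counts in DMSO and 54.9% to 59.7% in SKI-II and these shares did not overlap.

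Atp5c1, the gamma subunit that turns inside the head, went from 2993, 2983 and 3705 to 1193, 1791 and 2109, a log2 fold change of -0.93 ± 0.19. Atp5d, the delta subunit, had a log2 fold change of -0.66 ± 0.11. Atp5e, the epsilon subunit, had 980, 1227 and 1476 normalized counts in DMSO against 785, 857 and 1071 in SKI-II, with overlap, and a log2 fold change of -0.44 that did not pass the test (95% interval -0.83 to -0.047, edgeR adjusted p of 0.075). This subunit was called lower without DMSO library 1 (log2 fold change of -0.59) and without SKI-II library 3 (-0.58). Of the 4 peripheral stalk members, which hold the head still, 2 fell. Atp5o, known as OSCP, went from 2244, 2312 and 2824 to 1216, 1609 and 1649, a log2 fold change of -0.72 ± 0.15, and Atp5f1, the b subunit, had a log2 fold change of -0.69 ± 0.15. Atp5h and Atp5j, the other stalk members, did not pass the test at log2 fold changes of -0.32 (95% interval -0.68 to 0.043) and -0.29 (95% interval -0.61 to 0.041). Atp5h was called lower without DMSO library 1, at a log2 fold change of -0.46.

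The c subunit forms the ring that turns as protons pass. It is encoded by Atp5g1, Atp5g2 and Atp5g3 with different import sequences, and in the GENCODE M21 coding sequences, of 408, 438 and 423 bases without the stop codon, the last 78 residues they encode are identical. The last 90 coding bases are shown because this identical stretch of protein is written with different bases in each gene. They lie in the last exon of each, at chr11:96073107-96073196 for Atp5g1 (exon 5 of 5), chr15:102663017-102663106 for Atp5g2 (exon 4 of 4) and chr2:73908596-73908685 for Atp5g3 (exon 5 of 5), all on the minus strand of GRCm38, and capitals mark the 24 positions at which the 3 are not all alike.
Atp5g1: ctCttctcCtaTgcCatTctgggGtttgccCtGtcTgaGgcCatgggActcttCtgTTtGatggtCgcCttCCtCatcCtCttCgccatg
Atp5g2: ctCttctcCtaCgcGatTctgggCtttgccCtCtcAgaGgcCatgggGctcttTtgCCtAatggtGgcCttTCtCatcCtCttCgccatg
Atp5g3: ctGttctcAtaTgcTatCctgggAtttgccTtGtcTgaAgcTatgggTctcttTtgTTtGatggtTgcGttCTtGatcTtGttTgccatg

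The longest exact stretch shared by any 2 of the 3 coding sequences was 20 bases, between Atp5g1 and Atp5g2. Of the 3 genes, 2 fell. Atp5g3 had normalized counts of 3162, 2317 and 2350 in DMSO against 1286, 1648 and 1140 in SKI-II, with a log2 fold change of -0.94 ± 0.17 with an edgeR adjusted p of 0.0023. Atp5g2 went from 2995, 3107 and 3624 to 1997, 2087 and 2403, a log2 fold change of -0.58 ± 0.13. Atp5g1 had 1309, 1189 and 1310 in DMSO against 1383, 1654 and 1309 in SKI-II, so that the groups overlapped, and its log2 fold change of 0.19 had a 95% interval of -0.097 to 0.48, above the fitted values of both other genes. Its share of the counts of the 3 genes was 17.8% ± 0.26 (SD, n = 3) with DMSO, and 29.6%, 30.7% and 27.0% with SKI-II (exact permutation test, two-sided, p = 0.1, the smallest possible). The sum of the 3 genes went from 7465, 6613 and 7284 normalized counts to 4666, 5388 and 4853, apart in all libraries, with the same smallest exact permutation p of 0.1. Per kilobase of exon Atp5g2 led the family in both groups, at 1935 in DMSO and 1291 in SKI-II.

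The membrane accessory members of complex V, small proteins of the part where the enzyme pairs into dimers, were 4 in number and 2 of them fell. Atp5mpl had a log2 fold change of -0.57 ± 0.17 and Atp5j2, the f subunit, of -0.46 ± 0.14. Atp5k and Atp5l, the e and g subunits, had log2 fold changes of -0.42 (95% interval -0.81 to -0.029) and -0.38 (95% interval -0.75 to -0.018) and did not pass the test. The call of Atp5mpl was lost without DMSO library 3 or SKI-II library 1 or 2 (edgeR adjusted p of 0.082 to 0.086) and that of Atp5j2 without DMSO library 1 or SKI-II library 1 or 3 (0.069 to 0.087), while Atp5k was called lower without SKI-II library 2, at a log2 fold change of -0.60. Atp5s, which shares the name but is not a structural subunit, had 58.1 to 84.5 normalized counts per library in DMSO against 71.6 to 90.4 in SKI-II and did not pass the test.

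Over the 13 members that were not called, 9 were fitted below 0, and the 95% interval of each of the 13 lay above a log2 fold change of -1. Across the 42 members with at least 50 normalized counts in DMSO, the log2 fold change had a Spearman rho of -0.024 with exon length and -0.27 with the DMSO level, as a description over genes that share the same 6 libraries.

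Other genes of the same machinery were counted from lists written by hand. Of the nuclear subunits of complex I, which oxidises NADH, 13 of 36 fell (36.1%, where 19.7% of all tested genes fell and 18.4% rose) and 0 rose in edgeR, with 0 higher as well at an unadjusted p below 0.05 and in DESeq2 and limma-voom, and with a median log2 fold change of -0.29, and Ndufa9 and Ndufs1 were among those that fell, at -0.80 ± 0.12 and -0.71 ± 0.11. Without DMSO library 2, 6 of the complex I genes were called, without SKI-II library 1, 7 were, and without DMSO library 3 or SKI-II library 2, 8 were. Ndufa4, now counted with complex IV, fell by 0.73 ± 0.17 on the log2 scale, and its relative AA467197 had at most 1.91 normalized counts in a library and was not tested. Atpif1 and Usmg5, an inhibitor and a small subunit of complex V, did not pass the test at log2 fold changes of -0.29 and -0.38, and Usmg5 was called lower without DMSO library 1, at -0.52.

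Assembly factors, which build the complexes without staying in them, were counted as well. Of the 37 tested, 6 fell (16.2%, where 19.7% of all tested genes did) and 1 rose, with a median log2 fold change of -0.049. Lyrm7 and Bcs1l, which insert the Rieske protein into complex III, had log2 fold changes of -0.78 ± 0.28 and -0.70 ± 0.14, Sdhaf1 of complex II of -0.74 ± 0.25, and Surf1 of complex IV, which rose, of 0.49 ± 0.15. Bcs1l kept its call with each library left out. The call of Lyrm7 was lost without any library other than SKI-II library 3, that of Sdhaf1 without DMSO library 2 or 3 or SKI-II library 1 or 2, and that of Surf1 without DMSO library 1 or 2 or SKI-II library 1 or 3, each at an adjusted p of 0.068 to 0.16 in edgeR. The number of assembly factors called lower was 1 without DMSO library 2, 1 without SKI-II library 2 and 2 without SKI-II library 1.

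Among 14 regulators of mitochondrial biogenesis, 6 of the 13 tested fell (46.2%, against 19.7% of all tested genes) and 0 rose in edgeR, as in DESeq2 and limma-voom and at an unadjusted p below 0.05 in each, with a median log2 fold change of -0.39. Ppargc1b, a coactivator of respiratory genes, went from 491, 475 and 401 normalized counts to 250, 216 and 235, a log2 fold change of -0.97 ± 0.15 with an adjusted p of 0.0010 in edgeR. Its relative Ppargc1a was at 0 in all 6 libraries. Tfb2m, a mitochondrial transcription factor, and Twnk, the mitochondrial DNA helicase, had log2 fold changes of -0.95 ± 0.26 and -0.75 ± 0.15. Gabpa and Nrf1, chosen after their values were seen because their motifs were searched, had log2 fold changes of -0.52 ± 0.12 and -0.45 ± 0.15. Yy1, whose motif was searched as well, did not pass the test at -0.24 ± 0.13 (adjusted p of 0.17, edgeR). Neither did Gabpb1 of the same list, at -0.28 ± 0.17 (adjusted p of 0.22, edgeR). Tfb2m lost its call without SKI-II library 1 (adjusted p of 0.066), and Nrf1 without DMSO library 2 or 3 or SKI-II library 1 or 2 (0.080 to 0.10), and 3 regulators were called lower without SKI-II library 1. Gabpa shares 397 bases of exon with Atp5j on the opposite strand.

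Of the 10 mitochondrially encoded subunits tested, 3 rose, where 18.4% of all tested genes did, and 7 did not pass the test. All 10 were fitted above 0, with a median log2 fold change of 0.64. Those that rose were the complex I genes mt-Nd4, mt-Nd6 and mt-Nd5, at 0.76 ± 0.14, 0.64 ± 0.11 and 0.60 ± 0.14. The 13 genes took 1.07% to 1.24% of the counts in DMSO and 1.37% to 1.70% in SKI-II. Of those that complete complexes III, IV and V, 0 of the 5 tested were called in edgeR, DESeq2 or limma-voom (1, 0 and 1 were higher at an unadjusted p below 0.05). In edgeR, 2 of these, mt-Cytb and mt-Atp6, were called higher without DMSO library 1, and 1, mt-Cytb, without SKI-II library 3 or with no filter on low counts. Of the same genes, mt-Co1, the catalytic subunit of complex IV, had 106079, 137799 and 168874 normalized counts in DMSO against 145792, 144639 and 210815 in SKI-II, overlapping, with a log2 fold change of 0.28 ± 0.24. The genes mt-Nd3, mt-Nd4l, mt-Co2, mt-Co3, mt-Atp6 and mt-Atp8 had at most 40.1 normalized counts in a library. They are known to have near-identical copies in the nucleus, so their values are uncertain, and reads shared with these copies were not examined. Without DMSO library 1, 7 of the 10 were called higher, without SKI-II library 3, 6 were, and mt-Nd5 lost its call without DMSO library 2 (adjusted p of 0.065, edgeR).

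**Figure D4:**
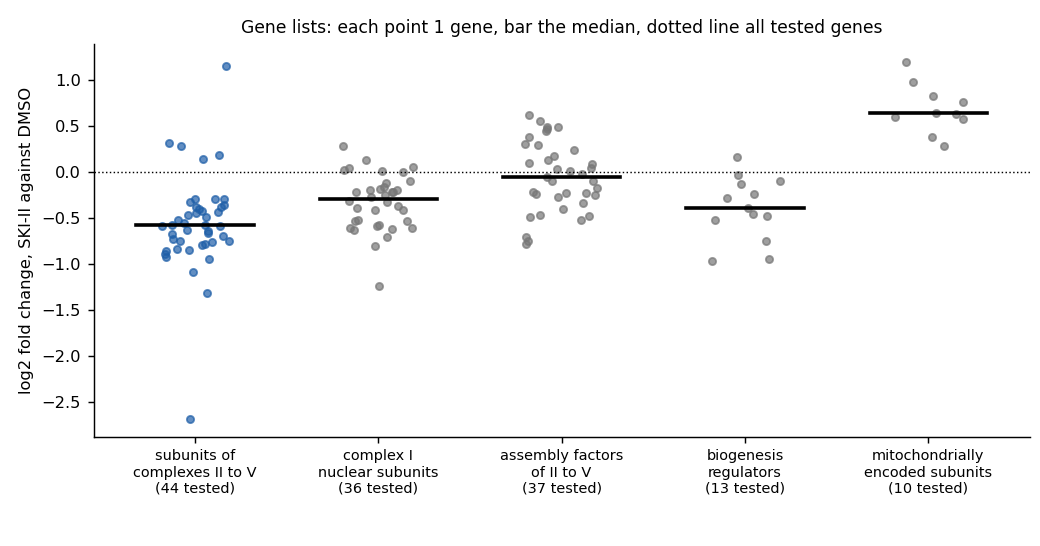
Log2 fold change in SKI-II against DMSO of the tested members and of 4 other gene lists, with each point 1 gene, bars for medians and a dotted line for the median of all tested genes. The median lies at -0.58 for the members, -0.29 for complex I, -0.049 for assembly factors, -0.39 for regulators and 0.64 for mitochondrially encoded subunits.

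Library totals lay between 12495957 and 20050677 counts. Among 8 macrophage markers, Csf1r, Cd68 and Spi1 did not pass the test, Adgre1, Lyz2, Itgam and Mrc1 were lower (log2 fold changes of -0.92, -1.26, -0.93 and -1.62) and Cd14 was higher (1.41), and their part in the fall of the respiratory genes was not tested. The 10 markers of T, B, epithelial, endothelial and fibroblast cells summed to 14.6 to 19.8 normalized counts per library in DMSO against 18.1 to 28.5 in SKI-II, with Cd3g, Epcam and Krt8 at 0 throughout. No source used here gives a strand setting for the counting, and the exons of 12 members overlap a gene on the opposite strand. Only reads within the overlapping stretches, 2.06% to 19.7% of a member's exon bases for each overlapping gene, cannot be told from that gene. Of these neighbours, Haus1 beside Atp5a1 and Gabpa beside Atp5j were lower, Cbarp beside Atp5d was higher, at 33.7 to 54.3 normalized counts in DMSO against 130 to 198 in SKI-II, and the others were not called or had under 16 normalized counts in each library.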

How the data were processed

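RNA of RAW264.7 cells was sequenced in 3 libraries per condition after poly(A) selection. The deposited table of the authors used here holds raw counts of reads per Ensembl gene, without normalization. The submitters' processing notes name Trimmomatic 0.36, STAR 2.5.2b, featureCounts of Subread 1.5.2 and DESeq2, with build, annotation release and strand setting not given in the sources used here. All columns were used. GENCODE M21 (GRCm38) named 49056 of the 49315 identifiers, and the others held 0.0102% of the counts and stayed in the library totals and the fit under their identifiers. Complexes and roles were assigned by hand.

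Groups were compared in edgeR 4.0.16 (R 4.3.3) with its quasi-likelihood test after TMM scaling. The default expression filter (minimum count 10, minimum total 15) kept 12274 genes, and p-values were adjusted over all of them by the Benjamini-Hochberg method. Fold changes were not shrunk, and standard errors come from the fitted weights and the moderated dispersion, whose common coefficient of variation was 17.5%. To give normalized counts, each library was scaled by its effective (TMM) size to the mean effective size of 16042438. Levels per kilobase divide them by the merged length of all annotated exons, so ranks between genes depend on the annotation. A count of 0 was taken to allow 3 counts, for counting error only. No pair of libraries of a group agreed within sampling noise (chi-square per degree of freedom 15.4 to 58.1). On counts simulated for this comparison the edgeR, limma-voom and DESeq2 fits were tested before use.

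Members and lists were chosen with earlier results of these data known. The genes named are, per complex, those with the highest and lowest log2 fold change and the highest level per kilobase, those called with a log2 fold change beyond 0.5 in either direction, the isoform families, and in each other list up to 3 called genes in each direction. A few genes of the other lists are not reported here. All other members are named as well, so that each is accounted for. Alternatives were DESeq2 1.42.0, limma-voom (limma 3.58.1), RLE scaling, library size alone, no filter, a minimum of 10 counts in each library, leaving out single libraries, the replicate number as a block, and a log2 fold change past 1. Exact permutation tests over libraries were two-sided. Promoter windows of 36 of the 49 members (34 matched by symbol and 2 by synonym) come from RefSeq. The other members, Atp5a1, Sdhc and Cyc1 among them, had no window and were not searched. Figures were drawn with matplotlib 3.10.9.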

Additional observations from a re-analysis of the deposited data

How the results depend on the processing

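The median log2 fold change of the members stayed below 0 under every alternative run. Between 28 and 36 of them were called lower under the other tools, scalings, filters and the replicate block, and 23 to 32 with a library left out, while the median log2 fold change lay between -0.65 and -0.49. Past a log2 fold change of 1, the number lower was 3. Scaling moved the median of all genes by at most 0.0077. Among the alternative values of single members, 519 kept direction and call, 30 lost the call, 20 gained it and 1 turned, Atp5s, at -0.014 to 0.23 with a library left out (below 0 without DMSO library 2). Without any filter on counts, Uqcrb and Cox5b were not called (adjusted p of 0.055 and 0.059 in edgeR), Sdhb (also under library size alone) and Atp5e were, and 6 mitochondrially encoded genes were higher. Lyrm7 was not called under DESeq2, RLE scaling, library size alone or no filter (adjusted p of 0.051 to 0.058). The number of members called higher ranged from 0 to 2 with a library left out (1 with all 6), in complex IV from 0 to 2 and in complex III from 0 to 1. In complex III, 5 to 8 members were called lower with a library left out. At 12495957 to 20050677 counts per library, members below about 10 counts could not be tested.

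Same-numbered DMSO and SKI-II libraries had correlations of 0.25, 0.0099 and 0.46 between their deviations from the group means, so the numbers were not taken to pair the libraries. DMSO libraries 1 and 2 correlated best with SKI-II libraries 2 and 1, and library 3 with its own number. With the replicate number as a block, 36 members were called lower and 3 higher, with 1 higher in complex III (Uqcrq), 2 in complex IV (Cox6a2 and Cox7a2l) and Cycs as 1 lower. Sdhb, Cox4i1 (log2 fold change of -0.35, adjusted p of 0.022 in edgeR), Atp5e, Atp5h and Atp5l were also called lower with the block, and 3 assembly factors were higher. The cause was not tested.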
